A study of Mus musculus with 12 samples.

Results

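Antiviral genes that respond to type I interferon were described in mouse colon tumours that differed in ST2, the receptor for interleukin-33. The 40 members were chosen by name, with earlier results of these data known. They are OAS, IFIT, Mx, nucleic acid sensor, ISG15, PARP and TRIM genes with other effectors. All 40 were found among the 24062 genes of the count table, and all 40 were among the 15060 genes with enough reads to be tested. A member had between 36 and 10424 reads in a library.

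The tumours grew in bone marrow chimeras of the Balb/c background, in which the marrow and the rest of the animal can differ in genotype. Each group is written as marrow => host, and the 4 groups were WT => WT, St2-/- => WT, WT => St2-/- and St2-/- => St2-/-, with 3 libraries each, labelled as biological replicates. All hosts, controls included, had been irradiated with 2 doses of 5 Gy, were given 8 weeks to rebuild their blood cells from the donor marrow and then received 6 injections of azoxymethane (AOM, 10 mg/kg), a carcinogen that causes colon tumours. Tumours were taken 13 to 14 weeks after the last injection, from 11 males and 1 female (WT => St2-/- replicate 3). The labels give neither the ages of the mice nor the share of host blood cells that outlived the irradiation. The question put to the members was which of them were lower in St2-/- hosts and which were not.

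Type I interferons bind a receptor made of IFNAR1 and IFNAR2, and its kinases JAK1 and TYK2 phosphorylate STAT proteins. With IRF9 these form a factor that binds the interferon stimulated response element (ISRE) before the antiviral genes. Interferon-gamma acts through its own receptor and through GAS elements, and many antiviral genes answer to both. In the gut, type III interferons reach the epithelium through IFNLR1 and IL10RB and induce much the same genes.

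Start sequences are shown first because the members were grouped by their response to interferon and the ISRE is the element known for it. RefSeq start windows on GRCm38.p6, from 250 bases before to 50 bases after each start, were matched for 31 of the 40 members. Oas2, Usp18, Mx1, Mx2, Parp14, Parp9, Dhx58, Rtp4 and Zbp1 had no window in the table. The ISRE was searched on both strands as the letters GAAANNGAAA, whose reverse complement is TTTCNNTTTC. It was found for 14 of 31 members (45.2%, 95% Wilson interval 29.2% to 62.2%) and for 3.99% of all 27025 genes with a window. Among all windows of the same length the share was 3.44%. The stretches around the match are printed 5′ to 3′ on the gene's strand, with the matched bases in capitals. The first 3 belong to members that were called lower in St2-/- hosts, and the other 4 to members that were not.
Isg15: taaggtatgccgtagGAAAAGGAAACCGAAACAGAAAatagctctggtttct
Oas3: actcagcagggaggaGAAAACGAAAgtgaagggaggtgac
Trim30a: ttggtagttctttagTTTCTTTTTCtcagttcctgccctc
Ifit1: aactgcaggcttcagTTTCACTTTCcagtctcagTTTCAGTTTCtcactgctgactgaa
Rsad2: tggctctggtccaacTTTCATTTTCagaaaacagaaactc
Oas1a: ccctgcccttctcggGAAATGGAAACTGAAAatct
Oas1g: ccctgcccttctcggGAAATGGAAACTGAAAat

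Isg15 lay at chr4:156200860-156200911 on the minus strand and held 3 overlapping matches, the first beginning at position -78 from the start. Oas3 lay at chr5:120777710-120777749 on the minus strand with 1 match. Trim30a lay at chr7:104465205-104465244 on the minus strand, also with 1 match. Ifit1 lay at chr19:34640770-34640828 on the plus strand with 2 separate matches, both in the TTTC orientation. Rsad2 lay at chr12:26456548-26456587 on the minus strand, with 1 match beginning at position -120. Oas1a lay at chr5:120907526-120907560 and Oas1g at chr5:120887614-120887646, both on the minus strand. Their matched bases are the same letters, and their transcripts are alike too, which bears on their counts below.

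Members with and without a match were both among those called. Of the 14 members with a match 4 were called lower in St2-/- hosts, with a median log2 fold change of -1.20 over all 14, and of the 17 without a match 7 were called, with a median of -0.92. A GAS element, searched as the letters TTCNNNGAA, which read the same on both strands, was found for 6 of 31 members (19.4%) and for 9.55% of all genes with a window. Of those 6 members 1, Ifit2, was called, and their median was -0.84. Both motifs occurred in 3 members, and 14 members had neither in this window.

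Library depth ran from 10293818 to 12962496 gene counts, and 16950 to 17697 genes had counts. The share of each total that named no gene was 49.8% to 53.2% in WT hosts and 52.3% to 59.6% in St2-/- hosts. The part of this difference in the host comparisons was not tested. Epithelial markers marked the tissue as labelled, with a summed level of 5998 to 16172 CPM (the usual counts scaled to library depth) over 12 genes, none of them at 0 in any library. Il1rl1, which encodes ST2, lay between 36.5 and 275 CPM in WT hosts and between 7.3 and 25 CPM in St2-/- hosts. No St2-/- host reached the lowest WT host, whichever marrow it carried. All WT hosts carried animal numbers of 5 digits and all St2-/- hosts numbers of 3 digits, and the labels do not say why. Whatever this difference marks cannot be told apart from host genotype wherever hosts are compared. In bulk tissue, fewer cells of a type and less RNA per cell cannot be told apart either.

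The antiviral genes were lower in St2-/- hosts as a list, and 15 of them passed the test. Averaged over both marrows, 15 of 40 members fell and 0 rose at an edgeR adjusted p under 0.05, against 1.08% of all tested genes that fell. The list was chosen with earlier results of these data known. Shares of all genes beside its counts are therefore descriptions and not independent support. DESeq2 called 33 members, against 3.38% of the genes it was fitted on that fell, and limma-voom 32, against 7.25%. All 40 members had a log2 fold change below 0, as did 50.2% of all genes. The members' median was -1.17, and that of all genes was -0.0015. At an unadjusted p under 0.05, 38 members were lower, against 10.8% of all genes. The 15 that fell were Trim30a, Zbp1, Herc6, Oasl2, Parp14, Dtx3l, Trim21, Sp100, Ifi44, Ifit2, Znfx1, Rtp4, Isg15, Parp9 and Oas3, with log2 fold changes from -2.23 (Zbp1) to -0.66 (Znfx1). The 25 that did not pass lay between -1.83 (Rsad2) and -0.33 (Ddx58), so the 2 sets overlap in size. Of those 25, 12 had an adjusted p under 0.1, and for only 2, Samd9l and Usp18, did the 95% interval include 0. Over all tested genes, 162 fell in the fit of all 12 libraries, and 333 without WT => St2-/- replicate 1. With any other 1 library left out, 71 to 209 fell. The count of 15 members depended on single libraries too. It was 25 without WT => St2-/- replicate 1, and it was 3, 4 and 8 without St2-/- => St2-/- replicates 3, 1 and 2, 4 and 7 without WT => WT replicates 3 and 2, 5 without St2-/- => WT replicate 2, and 9 and 7 without WT => St2-/- replicates 2 and 3. With this last pair both left out, only WT => St2-/- replicate 1 stayed in its group, and the members' median was -0.93. No calls are read from that fit. With each of the 12 libraries left out in turn, Trim30a, Zbp1 and Herc6 were called in all 12 fits, Oasl2 in 10, Parp14 in 9 and Dtx3l in 6. Trim21, Sp100 and Ifi44 were called in 5, Ifit2 and Rtp4 in 4, Parp9 and Oas3 in 3, and Isg15 and Znfx1 in 2.

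**Figure D1:**
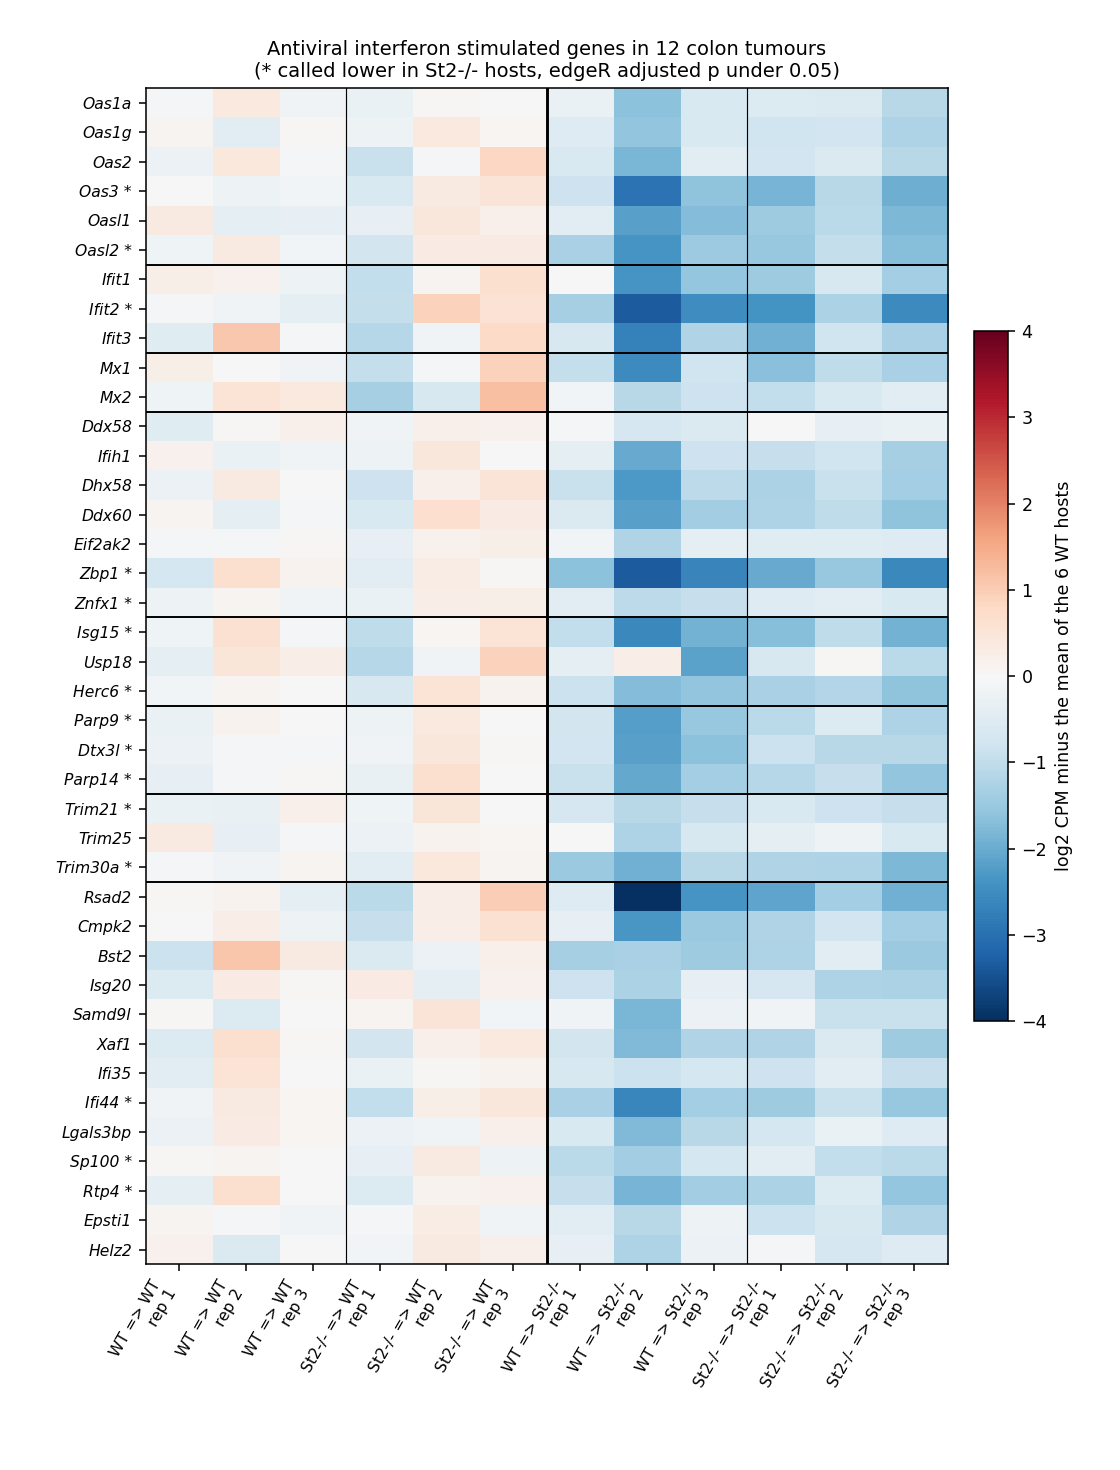
Each square is 1 member in 1 of the 12 libraries, as log2 CPM minus the mean of the 6 WT hosts, with horizontal lines between roles, a thick vertical line between WT hosts on the left and St2-/- hosts on the right, and a star at the 15 members called lower. The St2-/- hosts are bluer for nearly every member, WT => St2-/- replicate 2 is the bluest for most, and Usp18 is the member that breaks the pattern in that library.

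**Figure D2:**
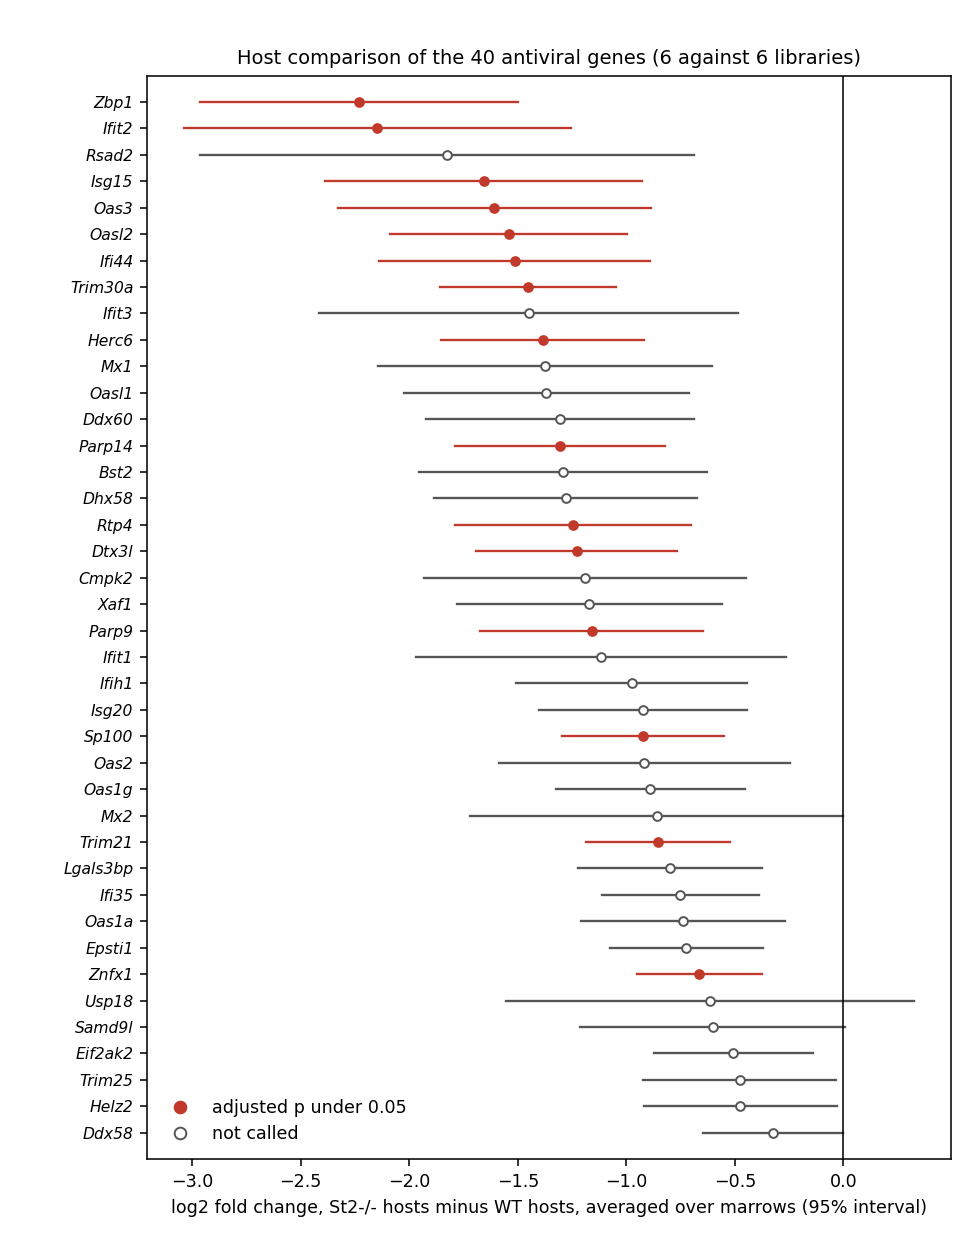
Points are the log2 fold changes of the 40 members, St2-/- hosts minus WT hosts averaged over marrows, with 95% intervals from edgeR, sorted by size, and filled red where the adjusted p was under 0.05. All 40 points lie below 0, and filled and open points mix between -1.83 and -0.66.

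The OAS genes encode enzymes that sense double-stranded RNA and make the 2-5A signal for RNase L, or, for the OASL proteins, relatives that act in other ways. Of 6 members 2 fell, Oasl2 and Oas3, and the median log2 fold change was -1.14. Oasl2 lies on chromosome 5 from 114896936 to 114912234 on GRCm38. It had 199.8, 289 and 210.1 CPM in WT => WT and 138, 286 and 285 CPM in St2-/- => WT. It had 92.8, 44.3 and 82.2 CPM in WT => St2-/- and 78.6, 118 and 69.7 CPM in St2-/- => St2-/-. All 6 WT hosts thus lay above all 6 St2-/- hosts. Oasl2 fell by 1.54 on the log2 scale (SE 0.25, edgeR adjusted p = 0.0131), a ratio of 2.91 in that fit.

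Oas2, with the largest p of the OAS group, spread more within groups. Its levels were 73.7, 115 and 83.9 CPM in WT => WT and 46.5, 81.9 and 154 CPM in St2-/- => WT. They were 56.7, 24.2 and 62.9 CPM in WT => St2-/- and 51.0, 58.4 and 40.4 CPM in St2-/- => St2-/-. St2-/- => WT replicate 1, the lowest WT host, lay among the St2-/- hosts. Between hosts Oas2 had a log2 fold change of -0.92 (SE 0.30, adjusted p = 0.148). Oas3, a long OAS protein with several enzyme-like units, fell by 1.61 (SE 0.33, adjusted p = 0.0416), from 67.6 to 145 CPM in WT hosts to 13.1 to 57.7 CPM in St2-/- hosts. The hosts of Oas1a, Oas1g and Oasl1 did not overlap either, but none was called, with log2 fold changes of -0.74, -0.89 and -1.37. Of the 50-base stretches of Oas1a transcripts, 57.6% also occur in another gene, mostly Oas1g, and 45.7% of those of Oas1g, so the split of reads between this pair is uncertain.

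The IFIT proteins bind viral RNA ends and block their translation. Ifit2 fell and had the second lowest log2 fold change of all 40 members. It lies on chromosome 19 from 34550694 to 34576419. Ifit2 had 156, 151 and 130.1 CPM in WT => WT, and 85.8, 315 and 248 CPM in St2-/- => WT. It had 65.7, 16.3 and 29.8 CPM in WT => St2-/-, and 31.6, 68.9 and 28.6 CPM in St2-/- => St2-/-. The hosts did not overlap, and St2-/- => WT held both the lowest and the highest WT host. Ifit2 fell by 2.15 (SE 0.40, edgeR adjusted p = 0.0312), a ratio of 4.43 in that fit.

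Ifit1, in the same gene cluster on chromosome 19, was not called. It had 87.8, 85.0 and 65.3 CPM in WT => WT and 37.5, 80.7 and 118 CPM in St2-/- => WT. It had 73.2, 14.5 and 25.5 CPM in WT => St2-/- and 28, 48.1 and 29.4 CPM in St2-/- => St2-/-. WT => St2-/- replicate 1 reached the level of WT hosts, and the hosts overlapped. On the log2 scale Ifit1 differed by -1.12 (SE 0.39, adjusted p = 0.158) and Ifit3 by -1.45 (SE 0.44, adjusted p = 0.123). Ifit3 shares 51.2% of its 50-base stretches with Ifit3b, so its level is uncertain.

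The Mx genes encode dynamin-like GTPases that block viral replication, and neither was called. Mx1 had 31.9, 27.1 and 24.7 CPM in WT => WT and 14.0, 25.9 and 50.8 CPM in St2-/- => WT. It had 14.0, 4.61 and 15.7 CPM in WT => St2-/- and 8.41, 13.4 and 11 CPM in St2-/- => St2-/-. Within each marrow the hosts did not overlap, but St2-/- => WT replicate 1 lay at the level of the higher St2-/- hosts. For Mx1 the log2 fold change was -1.37 (SE 0.35, adjusted p = 0.0874).

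Mx2, which the GENCODE M21 annotation lists as a polymorphic pseudogene, had the lowest level per length of all members in WT hosts, at 4.75 CPM per kb. It had 13.1, 21.7 and 19.1 CPM in WT => WT and 5.86, 9.52 and 33.6 CPM in St2-/- => WT. It had 13.7, 6.78 and 8.26 CPM in WT => St2-/- and 7.49, 9.65 and 10.7 CPM in St2-/- => St2-/-. The lowest and the highest of all 12 libraries were both St2-/- => WT. For Mx2 it was -0.86 (SE 0.39, adjusted p = 0.241).

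Of the 7 nucleic acid sensors 2 fell, Zbp1 and Znfx1, with a median of -0.97 over the 7. Zbp1 encodes a sensor of Z-form nucleic acids that can trigger necroptosis, and it lies on chromosome 2 from 173206612 to 173218923. It had 131, 328 and 233 CPM in WT => WT and 155, 257 and 219.7 CPM in St2-/- => WT. It had 68.2, 21 and 34.0 CPM in WT => St2-/- and 52.4, 73.8 and 35 CPM in St2-/- => St2-/-. The lowest WT host was well above the highest St2-/- host. Zbp1 fell by 2.23 (SE 0.33, edgeR adjusted p = 0.00926), a ratio of 4.69 in that fit, the largest of the 40 members.

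Ddx58, which encodes RIG-I, a cytosolic sensor of viral RNA ends, had the difference nearest to 0 of all 40 members. It had 45.2, 64.6 and 71.6 CPM in WT => WT and 56.8, 72.8 and 69.8 CPM in St2-/- => WT. It had 59.6, 39.0 and 41.8 CPM in WT => St2-/- and 62.0, 50.3 and 51.8 CPM in St2-/- => St2-/-. The hosts overlapped within both marrows. The log2 fold change of Ddx58 was -0.33 (SE 0.15, adjusted p = 0.237). The sister sensors Ifih1 (MDA5, for long double-stranded RNA) and Dhx58 (LGP2, a regulator of both) had log2 fold changes of -0.97 (adjusted p = 0.0809) and -1.28 (adjusted p = 0.0533), without overlap of hosts. Dhx58 overlaps the antisense transcript Dhx58os, so its count is less certain. Znfx1, an RNA helicase gene, fell by 0.66 (SE 0.13, adjusted p = 0.0377), the smallest fall among the called members. Ddx60, a helicase gene, differed by -1.31 (adjusted p = 0.0529), and Eif2ak2, which encodes the kinase PKR that halts translation, by -0.51 (adjusted p = 0.144).

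ISG15 is a ubiquitin-like protein that is attached to other proteins, HERC6 is the ligase for it in mice, and USP18 removes it and also dampens signalling at the interferon receptor. In this small system Herc6 and Isg15 fell and Usp18 was not called. Herc6 (chromosome 6, 57581000 to 57664632) had 45.4, 52.4 and 48.4 CPM in WT => WT and 31.2, 71.6 and 53.5 CPM in St2-/- => WT. It had 26.7, 14.9 and 16.3 CPM in WT => St2-/- and 19.7, 21.8 and 16.2 CPM in St2-/- => St2-/-. The hosts did not overlap, and Herc6 fell by 1.39 (SE 0.21, edgeR adjusted p = 0.00984). Of its 50-base stretches 12.5% also occur elsewhere, mostly in the overlapping transcript Gm45193. Isg15 (chromosome 4, 156199424 to 156200818) fell by 1.66 (SE 0.33, adjusted p = 0.0399), from 46.2 to 143 CPM in WT hosts to 15.7 to 47.6 CPM in St2-/- hosts, which overlapped slightly. Per length its level in WT hosts was 132 CPM per kb, next to Bst2 at 131 CPM per kb.

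Usp18 was the member with the largest p. It had 67.4, 125 and 106 CPM in WT => WT and 39.8, 80.7 and 168 CPM in St2-/- => WT. It had 67.8, 106 and 20.0 CPM in WT => St2-/- and 56.7, 90.7 and 41.6 CPM in St2-/- => St2-/-. WT => St2-/- replicate 2, the lowest of 12 libraries for 34 members, had the highest Usp18 level of the St2-/- hosts. The log2 fold change was -0.61 (SE 0.43, 95% interval -1.55 to 0.33, adjusted p = 0.437), so a fall like that of Herc6 lies inside the interval. Usp18 overlaps the antisense transcript Gm44148, and the strand setting of the counting is not known.

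**Figure D3:**
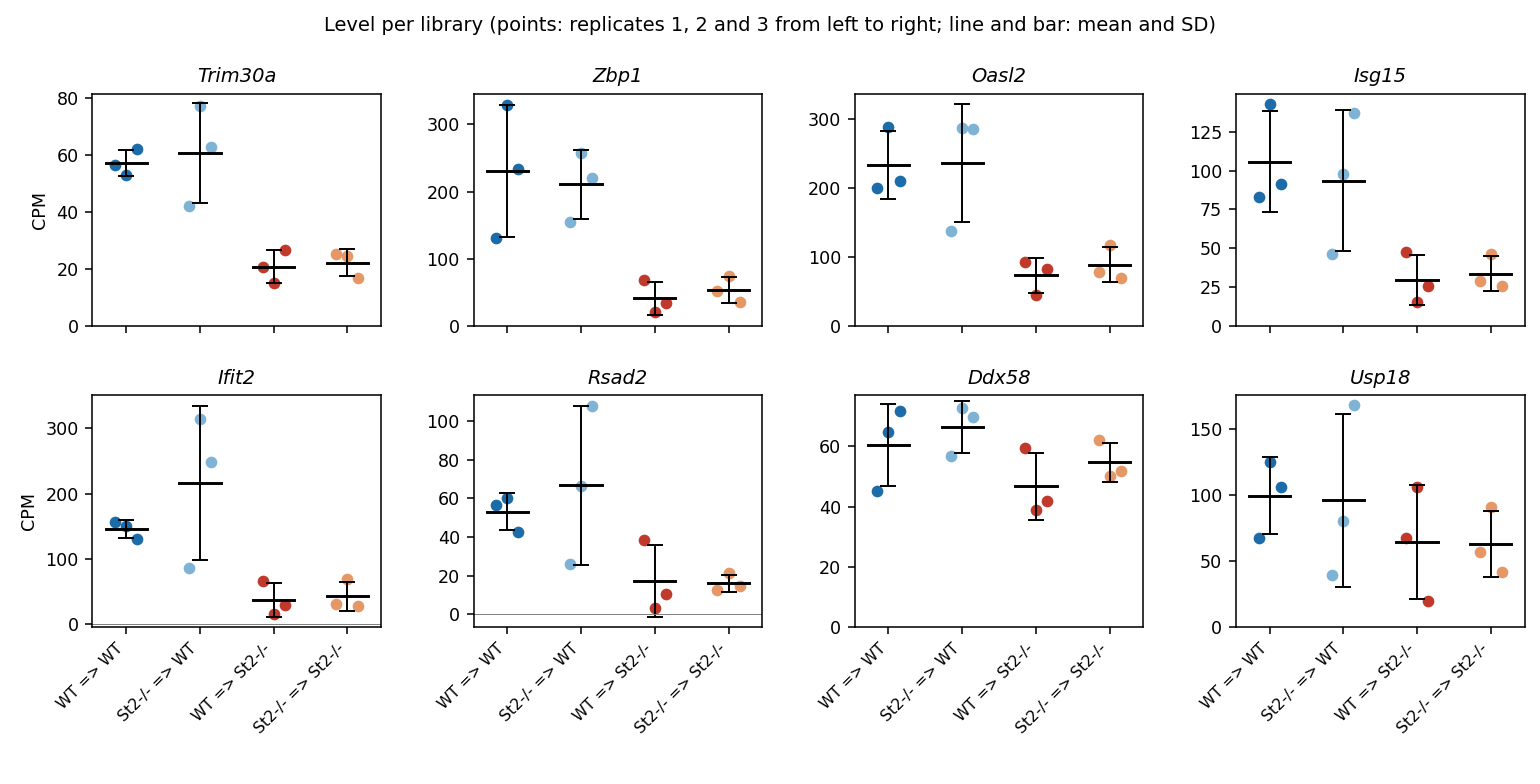
Points are CPM in each library of the 4 marrow => host groups for 8 members (Trim30a, Zbp1, Oasl2, Isg15, Ifit2, Rsad2, Ddx58, Usp18), with the mean as a line and the SD as a bar (n = 3). In Trim30a, Zbp1, Oasl2 and Ifit2 all WT hosts lie above all St2-/- hosts, while in Ddx58 and Usp18 the hosts overlap under both marrows.

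All 3 members of the PARP group fell. PARP9 and DTX3L form a complex that modifies ubiquitin, and PARP14 attaches ADP-ribose to proteins. Parp14 (chromosome 16, 35832874 to 35871544) had 187, 224 and 241 CPM in WT => WT and 191, 362 and 237 CPM in St2-/- => WT. It had 126, 56.8 and 91.5 CPM in WT => St2-/- and 107, 124 and 77.8 CPM in St2-/- => St2-/-. Parp14 fell by 1.30 (SE 0.22, edgeR adjusted p = 0.0188), without overlap of hosts.

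Parp9 had 217, 289.6 and 261 CPM in WT => WT and 226, 346 and 257 CPM in St2-/- => WT. It had 157, 57.7 and 92.4 CPM in WT => St2-/- and 124, 179 and 112 CPM in St2-/- => St2-/-. Parp9 fell by 1.16 (SE 0.23, adjusted p = 0.0399) and Dtx3l fell by 1.23 (SE 0.21, adjusted p = 0.0197), again without overlap of hosts. The start regions of these 2 genes overlap on opposite strands of chromosome 16. They share 7.71% of the 50-base stretches of Parp9 and 6.89% of those of Dtx3l, so part of their counts may not be separate.

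The TRIM genes encode ubiquitin ligases, and 2 of 3 fell. Trim30a (chromosome 7, 104409025 to 104465193), a regulator of NF-kB signalling, had the smallest p of all 40 members. It had 56.6, 53.0 and 62.0 CPM in WT => WT and 42.2, 77.2 and 62.9 CPM in St2-/- => WT. It had 20.6, 15.2 and 26.6 CPM in WT => St2-/- and 25.2, 24.6 and 16.9 CPM in St2-/- => St2-/-. The hosts were widely apart, and Trim30a fell by 1.45 (SE 0.18, edgeR adjusted p = 0.00473). It shares 5.98% of its 50-base stretches with Trim30d, a relative that was not called. Trim21, an intracellular antibody receptor, fell by 0.85 (SE 0.15, adjusted p = 0.0237).

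Trim25, which activates RIG-I, was not called. It had 362, 224 and 269 CPM in WT => WT and 239.9, 307 and 295 CPM in St2-/- => WT. It had 284, 119.8 and 178 CPM in WT => St2-/- and 213, 241 and 184 CPM in St2-/- => St2-/-. The hosts overlapped under both marrows. The log2 fold change was -0.48 (SE 0.20, adjusted p = 0.219).

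Of the 13 other effectors 3 fell, Sp100, Ifi44 and Rtp4, with a median of -0.92 over the 13. Sp100 (chromosome 1, 85649988 to 85709998) encodes a protein of nuclear bodies that restrains viral genomes. It had 56.0, 59.2 and 54.6 CPM in WT => WT and 43.9, 70.5 and 47.8 CPM in St2-/- => WT. It had 26.0, 20.7 and 33.8 CPM in WT => St2-/- and 41.2, 27.9 and 26.0 CPM in St2-/- => St2-/-. Sp100 fell by 0.92 (SE 0.17, edgeR adjusted p = 0.0272), without overlap of hosts. Ifi44 fell by 1.51 (SE 0.28, adjusted p = 0.0299) and Rtp4, a chaperone gene for receptors, by 1.25 (SE 0.25, adjusted p = 0.0388), each with slight overlap of hosts. Rtp4 shares 11.6% of its 50-base stretches with Gm45338.

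Samd9l, a restriction factor gene for poxviruses, had the largest p of this group. It had 153, 99.7 and 144 CPM in WT => WT and 158, 211 and 136 CPM in St2-/- => WT. It had 133, 41.3 and 125 CPM in WT => St2-/- and 133, 78.3 and 78.3 CPM in St2-/- => St2-/-. Under St2-/- marrow the hosts did not overlap, and under WT marrow they did. The log2 fold change was -0.60 (SE 0.28, adjusted p = 0.249). Rsad2, which encodes viperin, an enzyme that makes a chain-ending nucleotide, had the lowest log2 fold change among members not called, at -1.83 (SE 0.51, adjusted p = 0.108). Its libraries ranged from 25.9 to 108 CPM in WT hosts and from 3.13 to 38.5 CPM in St2-/- hosts. Cmpk2, its neighbour in pathway and genome, had -1.19 (adjusted p = 0.108). Bst2, the tetherin that holds virions at the membrane, had -1.29 (adjusted p = 0.0674). Lgals3bp, a secreted glycoprotein gene and the most abundant member per length in both hosts (277 and 162 CPM per kb), had -0.80 (adjusted p = 0.0743). The remaining effectors, Isg20, Xaf1, Ifi35, Epsti1 and Helz2, lay between -1.17 (Xaf1) and -0.48 (Helz2). Ifi35 shares 10.4% of its stretches with the overlapping transcript Gm11626, on the opposite strand.

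The members' levels separated the hosts for some genes and not for others. All 6 St2-/- hosts lay below all 6 WT hosts for 19 members, against 1.71% of all tested genes. Of these 19, 12 were called and 7 were not, namely Oas1a, Oas1g, Oasl1, Ifih1, Dhx58, Lgals3bp and Epsti1. Isg15, Ifi44 and Rtp4 were called although single libraries of the hosts overlapped. Within WT marrow the 3 St2-/- hosts lay below the 3 WT hosts for 32 members, against 9.82% of all genes, and within St2-/- marrow for 26, against 12.7%. Ifit1, Mx2, Ddx58, Usp18, Trim25 and Helz2 overlapped within both marrows.

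Single libraries stood out across the list. WT => St2-/- replicate 2 was the lowest of the 12 libraries for 34 members. It also had the highest summed level of 9 smooth muscle markers, at 3709 CPM, against 220 to 1725 CPM in the other St2-/- hosts. Its summed epithelial markers were the lowest, at 5998 CPM. Among WT hosts, St2-/- => WT replicate 1 was the lowest for 23 members and had the next highest smooth muscle level, at 3019 CPM. With a smooth muscle score as a covariate, 29 members were called lower, against 1.71% of all genes, and with a leukocyte score 14, against 0.77%. The highest library was St2-/- => WT replicate 2 for 17 members, replicate 3 of that group for 11 and WT => WT replicate 2 for 10. Their summed smooth muscle levels were 1565, 500 and 502 CPM. WT => WT replicate 1, with the lowest smooth muscle level of the WT hosts (223 CPM), was the lowest WT host for 9 members.

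With the marrow held at WT, no member passed the test. For WT => St2-/- against WT => WT, the median log2 fold change of the members was -1.17, and all 40 were below 0. Of the members 31 had an unadjusted p under 0.05, against 2514 of all genes in either direction. By edgeR 0 members were called, against 0.12% of all genes that fell, while DESeq2 called 20 (2.08% of all genes fell) and limma-voom 8 (1.33%). The lowest value was that of Zbp1, -2.49 (SE 0.47, edgeR adjusted p = 0.0613), and Trim30a had -1.46 (SE 0.26, adjusted p = 0.0554). Leaving out 1 library gave 6 called members without WT => St2-/- replicate 1, where 84 of all genes fell. It gave 2 without WT => WT replicate 1 (52 genes fell) and 1 without St2-/- => WT replicate 2 (41 genes fell). The size under WT marrow moved with other settings. With the smooth muscle score as a covariate the members' median was -0.70, with 18 at an unadjusted p under 0.05, against 1436 genes. Without the score, and with WT => St2-/- replicates 2 and 3 both left out, the members' median was -0.68.

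With St2-/- marrow no member passed the test either. For St2-/- => St2-/- against St2-/- => WT, the median was -1.07, and all 40 members were below 0. Of the members 28 had an unadjusted p under 0.05, against 1809 of all genes in either direction. By edgeR 0 members were called, against 0.0531% of all genes that fell, while DESeq2 called 14 (1.03% of all genes fell) and limma-voom 22 (7.7%), where 39 members were below 0. With the smooth muscle score the median was -1.56 and 6 members were called, against 0.0797% of all genes. Trim30a had -1.45 (SE 0.26, edgeR adjusted p = 0.1) and Ifit2 -2.33 (SE 0.57, adjusted p = 0.238). For St2-/- => St2-/- against WT => WT, which shares its libraries with the comparisons above, 0 members were called, against 0.0266% of all genes in either direction. There 30 members had an unadjusted p under 0.05, against 2067 of all genes in either direction. DESeq2 called 12 (1.21% of all genes fell) and limma-voom 29 (6.39%), and Zbp1 had -2.10 (SE 0.47).

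**Figure D4:**
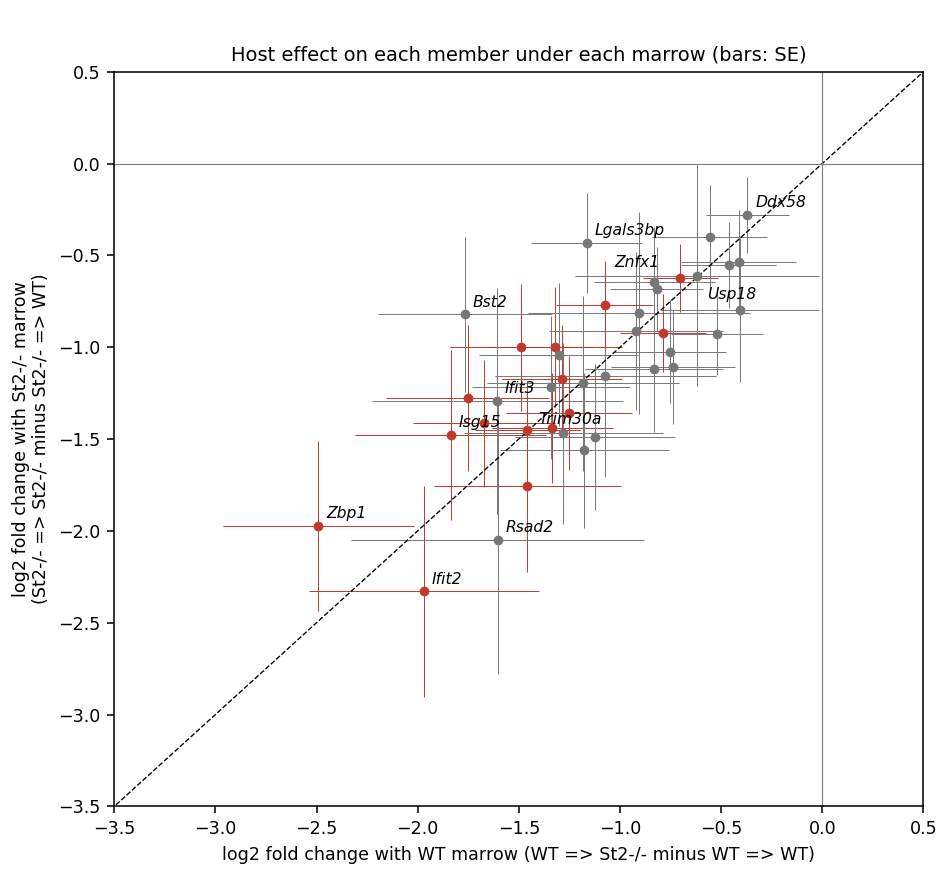
Each point is 1 member, with its log2 fold change between hosts under WT marrow on the x axis and under St2-/- marrow on the y axis, SE bars, the dashed line of equal size and red for the 15 members called in the average. All points lie below 0 on both axes, and Bst2 and Lgals3bp are farthest above the line.

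The difference between these host effects was tested as an interaction, and 0 of 40 members and 0.0% of all genes were called by edgeR. At an unadjusted p under 0.05 there were 0 members and 1144 genes, and DESeq2 and limma-voom called 0 members. The members' median was 0.01, with 18 members below 0. With the smooth muscle score as a covariate it was -0.78, with 38 members below 0. Then 11 members had an unadjusted p under 0.05, against 980 genes, still with 0 called. In the fit without the score, the smallest p belonged to Lgals3bp, at 0.73 (SE 0.38, 95% interval -0.11 to 1.58, edgeR adjusted p = 0.672). Its level was 366 ± 140.2 CPM in WT => St2-/- and 559 ± 86.0 CPM in St2-/- => St2-/-, against 820.3 ± 160.4 CPM in WT => WT and 754 ± 122 CPM in St2-/- => WT (SD, n = 3 each). Bst2 followed at 0.94 (SE 0.59) and Epsti1 at -0.40 (SE 0.32). The intervals of Bst2 and Epsti1 ran from -0.37 to 2.25 and from -1.11 to 0.30, so unequal host effects of 1 log2 unit lie inside them.

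The genotype of the marrow gave no call among the members. In WT hosts 0 members and 0.0% of all genes were called, and no member had an unadjusted p under 0.05, against 910 genes. The median was 0.08, with 15 members below 0. With the smooth muscle score it was 0.51, with 2 members below 0 and 10 at an unadjusted p under 0.05, against 818 genes. With limma-voom it was -0.13, with 31 below 0, and in both settings 0 were called. The smallest p belonged to Bst2 (-0.57, SE 0.42), Trim21 (0.25, SE 0.21) and Ifit2 (0.57, SE 0.55). In St2-/- hosts 0 members and 0.0% of all genes were called, and 1 member, Lgals3bp, had an unadjusted p under 0.05 (0.61, SE 0.27, edgeR adjusted p = 0.995), against 610 genes. There the median was 0.08, and -0.33 with the smooth muscle score. With that score 33 members were below 0 and 5 had an unadjusted p under 0.05, against 858 genes. Epsti1 (-0.34, SE 0.23) and Parp9 (0.43, SE 0.33) followed. Averaged over hosts 0 members and 0.0% of all genes were called, with 0 members and 415 genes at an unadjusted p under 0.05, and Znfx1 (0.21, SE 0.13), Dtx3l (0.32, SE 0.21) and Lgals3bp (0.24, SE 0.19) came first. In all 3 comparisons DESeq2 and limma-voom called 0 members. In that average the 40 members lay between -0.14 (Ifit3) and 0.39 (Ifit2), with 95% intervals that reached from -1.09 to 1.25.

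The interferon genes themselves were at the edge of detection. Of 19 genes of type I and type III interferons 12 had no read in any library, and a count of 0 allows up to 3 reads, or 0.231 to 0.291 CPM, in a library. The other 7 had 52 reads in all 12 libraries together, of which 45 were from Ifne, the epithelial type I interferon. The reads of Ifne were 29 in WT hosts and 16 in St2-/- hosts, and 17 of them were in WT => WT replicate 2. None of the 19 passed the filter. Ifng, the type II interferon, had 116 reads in WT hosts and 5 in St2-/- hosts and fell by 4.57 on the log2 scale (SE 0.73, edgeR adjusted p = 0.0124). In CPM it lay between 0.515 and 4.11 in WT hosts and at most at 0.158 in St2-/- hosts, with no read in 2 of them.

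No gene of the receptors and kinases was called by edgeR (0 of 9), where 1 had an unadjusted p under 0.05, and their median was -0.22. Ifnar1 stood at 0.19 (SE 0.09) and Ifnar2 at -0.22 (SE 0.19) on the log2 scale. Ifnlr1, the type III receptor, had -0.28 (SE 0.18). Jak1 and Tyk2 had -0.03 and -0.01, and Ifngr1 had the lowest value, at -0.75 (SE 0.22, edgeR adjusted p = 0.114).

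Some transcription factors of the pathway fell and others were not called. Stat2, a part of the ISRE-binding factor, fell by 1.15 (SE 0.13, edgeR adjusted p = 0.00325), from 142 to 228 CPM in WT hosts to 69.8 to 96.6 CPM in St2-/- hosts. Irf9, which belongs to the same factor, had -0.41 (SE 0.13, adjusted p = 0.131). Irf7, which amplifies type I interferon, fell by 1.29 (SE 0.23, adjusted p = 0.0246), and Irf1, a factor that interferon-gamma induces, fell by 1.76 (SE 0.21, adjusted p = 0.00331). Irf8 had -1.09 (SE 0.24, adjusted p = 0.0539), Irf5 -0.35, Irf2 -0.23 and Irf3, which is not induced by interferon, 0.04.

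Other lists of interferon targets were set beside the members. Of 36 further interferon stimulated genes 11 fell (median -0.95), among them Psmb8, an immunoproteasome subunit, at -2.24 and Cxcl10, a chemokine for T cells, at -3.25. Of 17 tested relatives of the members 5 fell (median -0.89), namely Parp10, Parp11, Parp12, Ifi44l and Gm14446, which RefSeq lists as Ifit1bl1. Of 25 tested genes of the interferon-gamma response 23 fell, and their median was -2.53 beside -1.17 for the members, a difference that carries no test. The tryptophan-degrading enzyme gene Ido1 fell by 6.15 and the GTPase gene Gbp2 fell by 3.03. Of 11 adaptors of nucleic acid sensing 1 fell, Myd88, at -0.53 (adjusted p = 0.0499), and of 7 negative regulators 1 fell, Socs1, at -1.73.

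**Figure D5:**
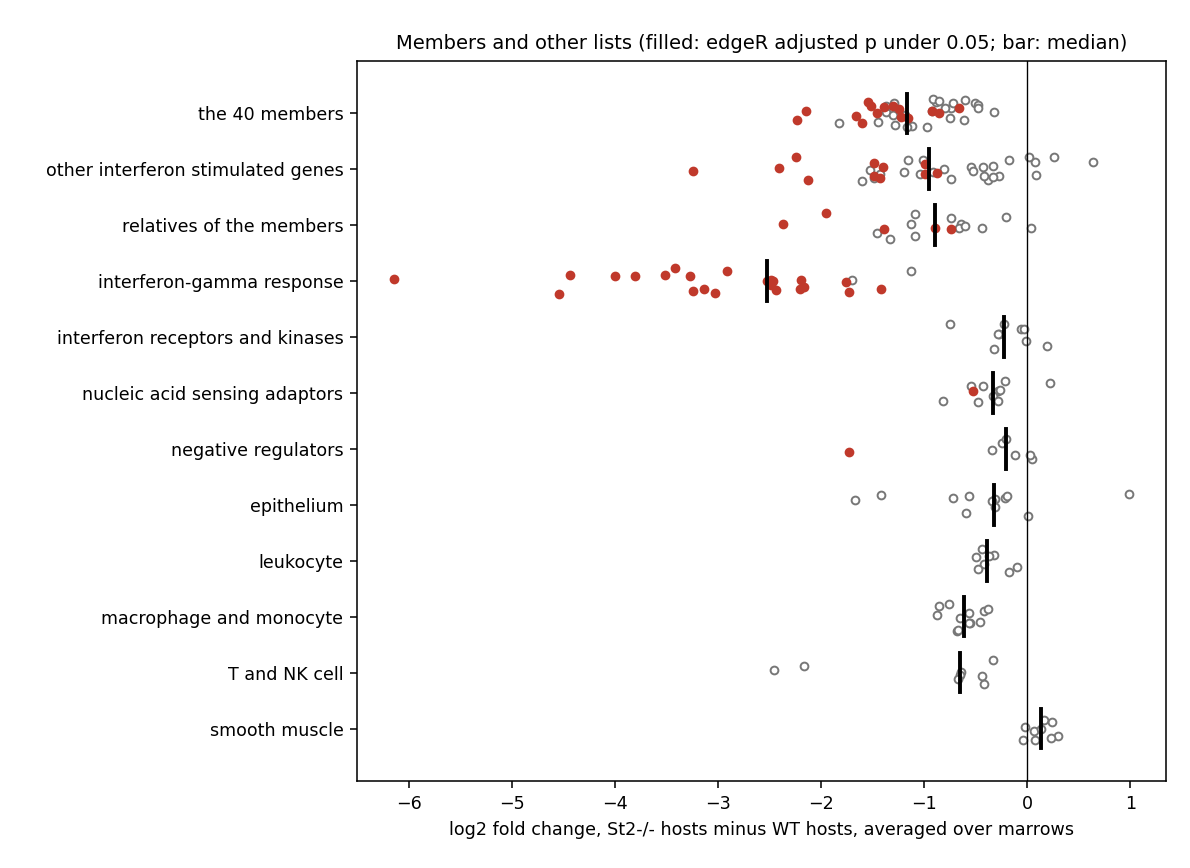
Points are the tested genes of each list by log2 fold change between hosts, averaged over marrows, filled where the edgeR adjusted p was under 0.05, with the median as a bar. The 40 members centre on -1.17, the interferon-gamma response on -2.53, and the receptors and kinases and the smooth muscle markers near 0.

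Markers of cell types were compared for the same hosts. Averaged over marrows, edgeR called 0 of them in any of the 10 lists, against 206 of all 15060 genes in either direction. So few markers cannot show that cell types were equal between hosts. Epithelial markers had a median log2 fold change of -0.33, with 10 of 12 below 0 and 4 at an unadjusted p under 0.05. They summed to 11037 to 16172 CPM in WT hosts and 5998 to 13592 CPM in St2-/- hosts. All 8 leukocyte markers were below 0 (median -0.39), while the medians of B cell, endothelial and smooth muscle markers were 0.47, 0.47 and 0.14. Within single marrows some differed in sign. Under WT marrow, smooth muscle markers had a median log2 fold change of 2.48 between hosts (8 of 9 at an unadjusted p under 0.05), macrophage and monocyte markers -1.14 (8 of 12) and neutrophil markers -2.03 (4 of 6). Under St2-/- marrow, smooth muscle markers had -2.07 (7 of 9), macrophage and monocyte markers -0.01 (0 of 12) and neutrophil markers 0.19 (0 of 6), and no marker was called under either marrow. Summed leukocyte markers lay between 249.5 and 730.1 CPM in WT hosts and between 178 and 816 CPM in St2-/- hosts. Macrophage and monocyte markers lay between 503 and 1582 CPM and between 239 and 885 CPM, and all 12 of their log2 fold changes were below 0 (median -0.61). Those of plasmacytoid dendritic cells, known as the main source of type I interferon, lay between 483 and 751 CPM and between 405 and 716 CPM. In WT => St2-/- replicate 1 this sum, 447 CPM, was above that of the leukocyte markers, 178 CPM. It therefore cannot be read as a level of these cells alone. T and NK cell markers lay between 31.9 and 89.9 CPM and between 10.9 and 51.0 CPM, with a median log2 fold change of -0.65. The part of these cell types in the members' difference was not tested beyond the leukocyte and smooth muscle scores given above.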

How the data were processed

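RNA of 12 colon tumours was sequenced as single-end reads of 50 bases, per the labels' protocols. The submitters' processing notes name TopHat, Bowtie2 and the build GRCm38 (mm10). Not given in the sources used here are tool versions, counter, annotation and strand setting. The authors deposited raw read counts per gene. The 5 summary entries that name no gene (49.8% to 59.6% of each total) were left out, and 0 columns lacked a sample.

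Tests used edgeR 4.0.16 in R 4.3.3 (filterByExpr with minimum count 10, TMM, 1 coefficient per group, robust quasi-likelihood tests). Of the genes, 15060 were tested and 9002 removed. The spread was estimated over all 12 libraries. Two-sided p-values were adjusted by Benjamini-Hochberg over all genes tested, and a call means an adjusted p under 0.05. The step was tested on simulated counts. Replicates are the labels' biological replicates. CPM are TMM-scaled, and CPM per kb divides by the union of exons in GENCODE M21, which also gave gene coordinates. SD are over the 3 libraries of a group. Counting floors cover counting error only. Motifs were searched in RefSeq windows, and shared stretches of 50 bases in GENCODE M21 transcripts, with Python 3.11.15.

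Members and lists were chosen with earlier results of these data known. A pathway gene outside the members is not reported here. Values in every library were given for the members with the smallest and the largest p of each role between hosts, and 3 members were named in each comparison of marrows; Isg15, Oas3, Rsad2 and others shown were picked after their values were seen. Alternatives were DESeq2 1.42.0 size factors and Wald test, voom with quality weights (limma 3.58.1), no filter, a filter of CPM 1 in 3 libraries, the replicate block, weeks after AOM, leukocyte and smooth muscle scores as covariates, each library left out, and WT => St2-/- replicates 2 and 3 both left out.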

Additional observations from a re-analysis of the deposited data

How the results depend on the processing

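In the host comparison averaged over marrows, all 40 members stayed below 0 under all 22 alternatives. The count of members called, 15, was 33 with the DESeq2 Wald test and 32 with limma-voom. It was 29 with the smooth muscle score and 5 with the replicate block. It ranged from 3 to 25 with 1 library left out, and other settings with all libraries gave 14 to 17. Leaving out the pair WT => St2-/- replicates 2 and 3 kept only replicate 1 of that group, with a members' median of -0.93. Trim30a, Zbp1 and Herc6 were called in 21 of the 22, and lost only with that pair left out. Over all genes the count of 206 became 1164 with DESeq2, 1834 with limma-voom, 323 with the smooth muscle score and 152 with the block. Same-numbered libraries correlated above 0.1 in 5 of 18 pairs (-0.50 to 0.28), and other-numbered ones in 16 of 36 (-0.42 to 0.53). The labels do not say what a replicate number shares. With 3 libraries a group these correlations cannot show whether it marks a batch or day. Under WT marrow the count of 0 was 20 with DESeq2, 8 with limma-voom and 0 to 6 with 1 library left out. Under St2-/- marrow it was 14, 22 and, with the smooth muscle score, 6, and for St2-/- => St2-/- against WT => WT it was 12 and 29. The cause was not tested. Between marrows, where no member was called, signs changed with the setting: of 40 members 15 were below 0 in WT hosts, 31 with limma-voom and 2 with the smooth muscle score, and for the interaction 18, and 38 with that score. Among the members named there, signs changed for Trim21 between marrows in WT hosts (-0.0633 with limma-voom), Parp9 in St2-/- hosts (-0.1841) and Dtx3l averaged over hosts (-0.003), both with the pair left out, and the interaction of Lgals3bp (-0.0805 with the smooth muscle score). With 3 libraries a group, small differences in low members such as Mx2 are not detectable at this depth and spread.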

Other observations

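Outside the lists, the 10 genes whose log2 CPM followed the members' mean most closely over the 12 libraries were Apol7a, Bak1, Mlkl, Ltbr, Spats2l, Rab5c, C2, Trafd1, H2-Q4 and Dbnl, with Pearson's r from 0.971 (Apol7a) to 0.941 (Dbnl). These are descriptions over libraries that share the host difference, without a test. Mlkl, which carries out necroptosis downstream of ZBP1, had a log2 fold change of -1.19 between hosts (SE 0.19, edgeR adjusted p = 0.0124). C2, a complement component gene, had -2.00 (SE 0.39, adjusted p = 0.0380), and H2-Q4, a class I histocompatibility gene, had -1.63 (SE 0.24, adjusted p = 0.00875). Bak1, a gene of the mitochondrial death pathway, had -0.63 (SE 0.14, adjusted p = 0.0600). Among the members themselves, r with the same mean ran from 0.985 (Oasl2) to 0.454 (Usp18), and each member is part of that mean.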
